A study of Mus musculus with 10 samples.

Results

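The genes described here are the integrins, the laminins and further genes of the basement membrane, measured in medullary thymic epithelial cells (mTECs) with and without the transcription factor Fezf2. They were chosen by name, by a rule that used no values, but with earlier results of these data known. The choice took each probe set with 1 gene symbol whose symbol had the form of an integrin alpha or beta chain or of a laminin chain, together with those of Nid1, Nid2, Hspg2, Agrn, Sparc, Dag1, Cd151, Fn1, Fras1, Frem1 and Frem2. This gave 50 genes with 111 probe sets, of 18194 genes annotated on the array. The form of the integrin beta names also caught 4 genes that do not encode integrin subunits, Itgb1bp1, Itgb1bp2, Itgb3bp and Itgbl1, which are described apart from the chains.

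RNA was hybridised to 10 Affymetrix arrays, 5 of wild-type (WT) cells and 5 of cells labelled Fezf2 KO. All cells came from the thymus of C57BL/6 mice aged 3 weeks. The sort kept CD45-negative, EpCAM-positive cells with much CD80, which marks mTECs that have matured. Their labels name neither the deleted part of Fezf2 nor a promoter or Cre line, and do not say whether each array stands for 1 mouse. The p-values therefore measure only how arrays differ, and some of that may be technical. Arrays are named by the numbers in their titles, WT 1 to WT 5 and KO 6 to KO 10.

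Integrins are cell surface receptors made of an alpha and a beta chain, which bind matrix proteins or counter-receptors outside the cell and the actin or keratin cytoskeleton inside it. A basement membrane is the thin sheet of matrix under an epithelium or around a vessel. It is built from laminin trimers of an alpha, a beta and a gamma chain and from type IV collagen, which are linked by nidogens and heparan sulfate proteoglycans. In the thymus, epithelial cells form a meshwork through the tissue and lie on basement membranes at the capsule and around vessels, and migrating thymocytes use integrins to move through it.

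Signal means the deposited linear intensity of a probe set. Each gene was represented by its brightest probe set, changes were fitted with limma on log2(signal + 16) as KO minus WT, and a gene was called where its Benjamini-Hochberg adjusted p over all genes tested was under 0.05. A change on this scale understates that of dim genes. Genes were tested where a probe set exceeded the 40th percentile of its array on at least 5 arrays. Of the 50 genes 45 passed, each on 8 or more arrays and 43 of them on all 10, so none was tested through 1 group alone. Itga5, Itgax, Lamc3, Frem1 and Itgb1bp2 did not pass. Their mean signals lay between 9.67 for Frem1 and 21.01 for Itgax in WT and between 9.81 and 18.7 in KO, while the 40th percentiles of the arrays lay between 21.6 and 22.1. Signals of different probe sets depend on their sequences, so no gene's level is set against another's. Brightness served only to choose which genes are shown on every array, and sums over marker lists are compared between arrays only.

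Fezf2 had signals of 5054 to 5895 on the WT arrays and 12.1 to 18.3 on the KO arrays (exact two-sided permutation test, p = 0.00794, the smallest that 5 against 5 arrays allow). The epithelial marker Epcam, part of the gate, had means of 7344 in WT and 7695 in KO (log2 change 0.07, limma, adjusted p = 0.25). Ptprc, which encodes CD45, still had signals of 210.3 to 298 in WT and 155 to 278 in KO. Poly-A spike-in signals were highest on WT 1 and KO 6, at 393 and 557 (86.1 to 313 elsewhere). The same holds for 18S rRNA, at 3445 and 3762 (765 to 1774 elsewhere). KO 6 was the lowest KO array for 23 of the 45 tested genes and the highest for 13, and WT 1 was the lowest WT array for 18 and the highest for 6.

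In KO cells these genes changed in both directions, among the integrin alpha and beta chains as in the Fraser complex. Fibronectin (Fn1), the integrin chains Itgal and Itgb8 and the laminin chain Lama4 fell most, between 1.54-fold and 1.96-fold. The integrin chain Itgb3 and the Fraser complex gene Frem2 rose most, 1.92-fold and 1.72-fold. Folds here and below are of signal + 16. In mean signal these falls ran from 1.64-fold for Lama4 to 2.01-fold for Fn1. By the same measure Itgb3 rose 2.01-fold and Frem2 2.03-fold. In all, 18 of the 45 genes were called, or 40%, against 29.2% of the 14087 genes tested (limma, adjusted p under 0.05). Of these, 11 were lower, or 24.4% against 16.2% of all genes, and 7 were higher, or 15.6% against 13%. Called falls of at least 0.5 on the log2 scale were 4, or 8.89% against 6.26%, and called rises of that size were 2, or 4.44% against 5.4%. KO signals lay entirely below WT signals for 7 of the genes, or 15.6%, against 12% of all genes, and entirely above for 4, or 8.89%, against 10.1%. The median log2 change was -0.04, close to the -0.03 of all genes, while the median size of change regardless of sign was 0.22 against 0.15. Without WT 1 and KO 6 the counts were 12 lower and 6 higher, among 2495 and 1945 of all genes. With these arrays as a block they were 15 and 8, among 2896 and 2202. With array weights 18 genes were lower and 7 higher, among 3142 and 2421 of all genes. In RNA from sorted cells in bulk, fewer cells of a type and less RNA per cell cannot be told apart.

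**Figure D1:**
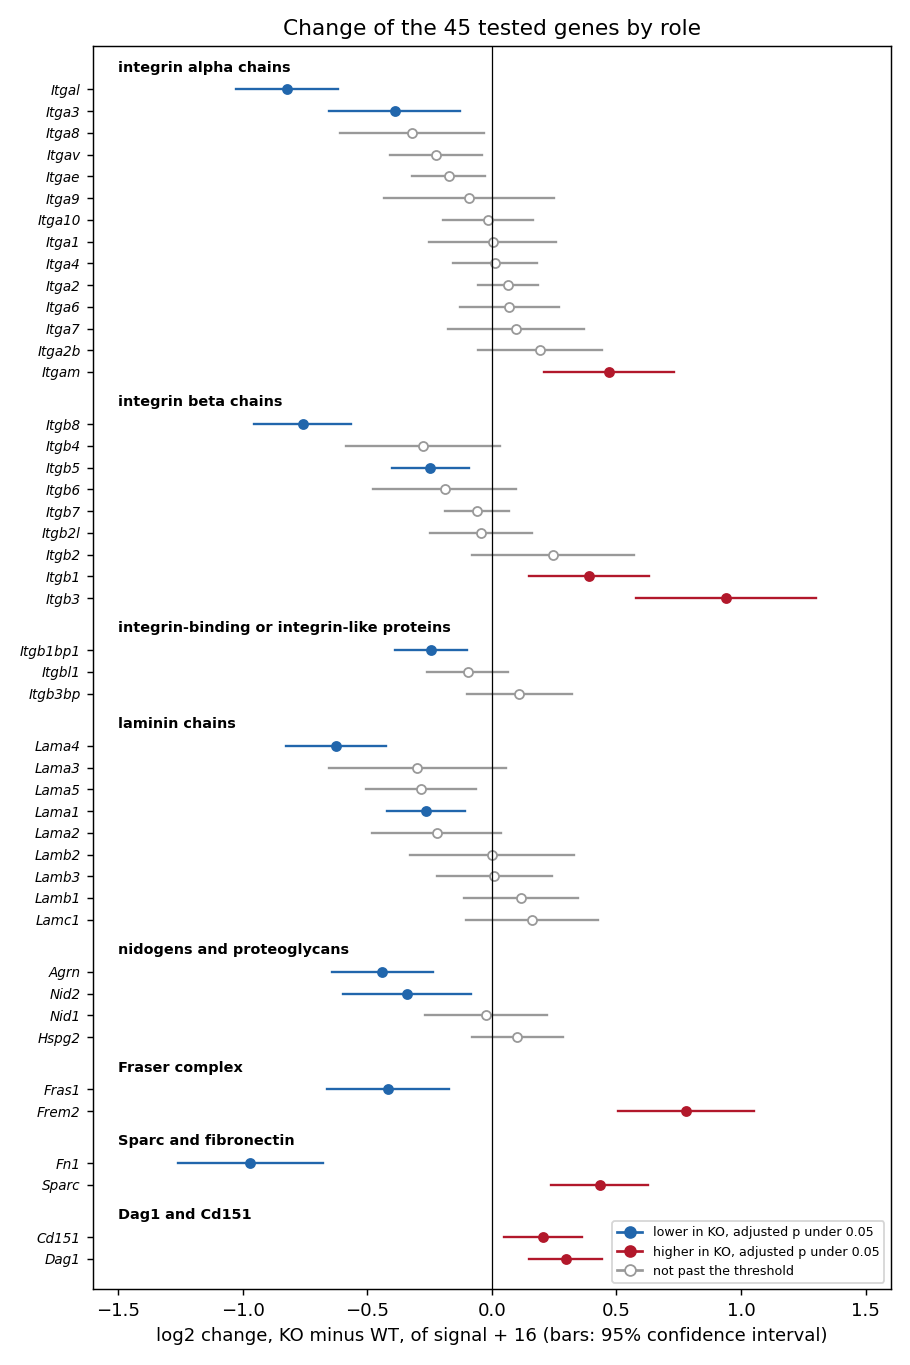
Log2 change (KO minus WT, horizontal axis, of signal + 16) of the 45 tested genes, grouped by role, with 95% confidence intervals over 5 WT and 5 KO arrays; blue marks genes lower and red genes higher in KO at an adjusted p under 0.05. Changes run from -0.97 for Fn1 to 0.94 for Itgb3, and lower and higher genes stand side by side among the integrin chains and in the Fraser complex.

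Integrin alpha chains gave 2 lower genes and 1 higher gene of 14 tested, and 11 missed the threshold. Itgal encodes the alpha chain of LFA-1, an integrin of leukocytes that binds ICAM molecules. Its signals were 268, 251, 252, 319.7 and 254 on WT 1 to WT 5 and 123, 159, 167, 147 and 132 on KO 6 to KO 10. Every KO signal lay below every WT signal, and WT 4 was the highest array. Itgal fell 1.77-fold (log2 change -0.82, SE 0.09, limma, adjusted p = 5.0e-05). Itgb2, which encodes the beta chain that pairs with it, went from 82.9 ± 18.2 to 101 ± 20.00 (SD, n = 5 each), a change of 0.25 that did not pass (adjusted p = 0.25, 95% interval -0.08 to 0.57). With WT 1 and KO 6 as a block Itgb2 was called higher (adjusted p = 0.045).

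Itgam, the alpha chain of Mac-1 on myeloid cells, rose from a low signal. It was 40.4, 25.6, 24.7, 24.6 and 28.3 in WT and 59.4, 50.6, 47.1, 38.1 and 35.1 in KO, with a log2 change of 0.47 (SE 0.12, limma, adjusted p = 0.011). WT 1 was above KO 9 and KO 10, so the groups overlapped. Itgam also pairs with the Itgb2 chain. Markers of leukocytes in these cells moved both ways beside these chains, as given further on.

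Itga3, a laminin-binding chain of epithelia, fell from 245 ± 41.98 to 182 ± 23.6 (log2 change -0.39, SE 0.12, limma, adjusted p = 0.028), with WT 1 at 181 inside the KO range of 153 to 212. The call failed in 6 of the 10 fits with 1 array left out, those without WT 3, WT 4, WT 5, KO 6, KO 7 or KO 8, with adjusted p from 0.055 to 0.071. Its weaker kept probe set gave -0.26 and did not pass.

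Itga6 pairs with the Itgb4 chain in hemidesmosomes, which fasten basal epithelial cells to laminin. Its brightest probe set had signals of 1882, 1955, 2517, 2416 and 2610.3 in WT and 2233, 2471, 2418, 2341 and 2388 in KO. The groups overlapped, the WT arrays spread more widely, and the log2 change was 0.07 (adjusted p = 0.60). The gene's other probe set read 1001, 993, 1049, 1077 and 1204 in WT and 1379, 1552, 1559, 1325 and 1485 in KO, all KO above all WT, with a change of 0.45 (limma over 23581 probe sets, adjusted p = 6.4e-04). The 2 probe sets thus gave different calls for the same gene.

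Itgb4 itself read 413 ± 73.5 in WT and 338 ± 56.8 in KO, a change of -0.28 that was not past the threshold (adjusted p = 0.17). WT 1 and KO 6 were the lowest of their groups, at 295 and 244. Itgb4 passed without WT 1 (-0.39, adjusted p = 0.032), without WT 1 and KO 6 together (-0.28, adjusted p = 0.016) and with both as a block (adjusted p = 0.0071).

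The other alpha chains not past the threshold were Itga1, Itga2, Itga2b, Itga4, Itga7, Itga8, Itga9, Itga10, Itgae and Itgav, with log2 changes between -0.32 for Itga8 and 0.20 for Itga2b. Itga8, which binds nephronectin and other matrix proteins of the RGD type, had adjusted p = 0.093 and a 95% interval of -0.61 to -0.03, and was called lower when WT 1 and KO 6 formed a block (adjusted p = 0.039). Itgae, the chain that binds E-cadherin, had a change of -0.17 (adjusted p = 0.073) and passed without KO 8 (-0.21, adjusted p = 0.045). For Itga1, Itga4 and Itga10 the estimates were within 0.02 of 0, with the widest interval running from -0.25 to 0.26 for Itga1. Itga9 varied most between arrays, from 17.3 on WT 1 to 52.3 on WT 4.

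Of 9 integrin beta chains 2 were lower, 2 higher and 5 not past the threshold, and the chains that share the alpha partner Itgav went different ways. Itgb8 forms with Itgav a receptor that activates latent TGF-beta. Its signals were 1191, 830.4, 961, 853 and 968 in WT and 535, 563, 583, 579.6 and 524 in KO. The KO arrays lay close together and all below the WT arrays, of which WT 1 was the highest. This was a 1.69-fold fall (log2 change -0.76, SE 0.09, limma, adjusted p = 6.5e-05).

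Itgb3, which joins Itgav in a vitronectin receptor and Itga2b in the fibrinogen receptor of platelets, changed in the opposite direction. It read 129, 154, 68.2, 127 and 113 in WT and 192, 279, 216, 266 and 234 in KO. No KO signal was as low as the highest WT signal, and WT 3 was the lowest array. Itgb3 rose 1.92-fold (log2 change 0.94, SE 0.17, limma, adjusted p = 0.0012). A weaker probe set, close to the 40th percentile at 18.1 to 22.8 in WT and 23.03 to 26.1 in KO, gave 0.19 (adjusted p = 0.014). It exceeded that percentile on 1 WT array and 5 KO arrays. It thus passed the filter through KO, and its change adds no separate evidence of a rise.

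Itgb5, another vitronectin receptor chain, fell from 223 ± 17.9 to 186 ± 10.9 (log2 change -0.25, SE 0.07, limma, adjusted p = 0.021), with the groups overlapping at WT 2, 194, and KO 10, 204. It no longer passed without WT 5 (-0.22, adjusted p = 0.054), without KO 8 (-0.24, adjusted p = 0.0501) and without WT 1 and KO 6 together (-0.21, adjusted p = 0.054). Its 3 weaker probe sets showed a larger fall, from -0.54 to -0.64, each called. The brightest of these read 153 to 220.4 in WT and 83.5 to 131 in KO, without overlap.

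Itgb6, an epithelial chain that also activates TGF-beta, had a change of -0.19 (adjusted p = 0.31), with KO 6 at 40.5 above the 19.8 to 23.4 of the other KO arrays. It passed without KO 6 (-0.31, adjusted p = 0.033). The common alpha partner Itgav read 1415 ± 183 in WT and 1203 ± 61.8 in KO, a change of -0.22 (adjusted p = 0.068, 95% interval -0.41 to -0.04). It passed without WT 2, the lowest WT array at 1159.5 (-0.29, adjusted p = 0.011), and when WT 1 and KO 6 formed a block (adjusted p = 0.049). Among Itgav and these partners, Itgb3 was thus called higher, Itgb5 and Itgb8 lower, and Itgav and Itgb6 neither.

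Itgb1, the beta chain shared by most matrix-binding integrins, rose. It read 494, 407, 601, 647 and 624 in WT and 754, 722, 739.8, 701 and 695 in KO. All KO arrays lay above all WT arrays, and the WT arrays were spread more widely, WT 2 being the lowest. Itgb1 changed by 0.39 (log2, SE 0.11, limma, adjusted p = 0.019). Its weaker probe sets gave 0.30 and 0.15, neither called, and without WT 1 and KO 6 together the change was 0.34 (adjusted p = 0.058). Itgb7, a chain of lymphocyte homing receptors, and Itgb2l had estimates of -0.06 and -0.04 and were not called.

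**Figure D2:**
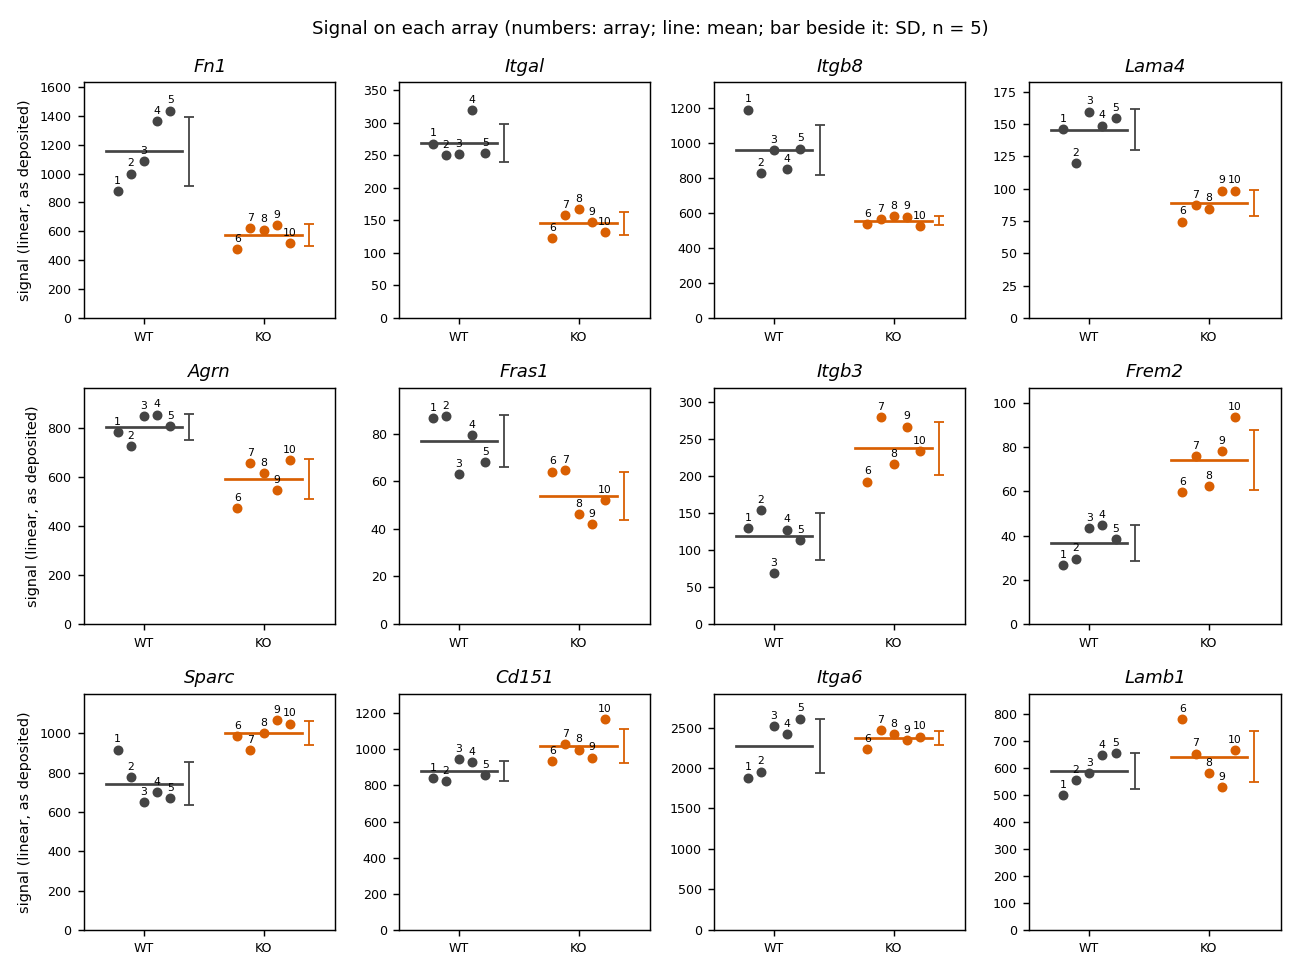
Deposited linear signal (vertical axes, each starting at 0) of 12 genes on each of the 5 WT (grey) and 5 KO (orange) arrays; numbers are the array numbers, lines the group means and bars the SD. Fn1, Itgal, Itgb8, Lama4 and Agrn have all KO arrays below all WT arrays, Itgb3 and Frem2 all above, and Itga6 and Lamb1 overlap.

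Among the genes caught by name that are not integrin chains, 1 of 3 tested was lower. Itgb1bp1, also called ICAP1, binds the tail of the Itgb1 chain and restrains its activation. It read 262, 273, 229.9, 256 and 232 in WT and 222, 203, 202, 201 and 216 in KO, with every KO array below every WT array. The log2 change was -0.24 (SE 0.07, limma, adjusted p = 0.016), opposite in sign to that of Itgb1. Itgb3bp, a centromere protein, and Itgbl1, a secreted protein with integrin-like repeats, had estimates of 0.11 and -0.10 and were not called.

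Of 9 tested laminin chains 2 were lower and 7 were not past the threshold. Every alpha chain had a negative estimate, but Lama2, Lama3 and Lama5 were not called. Over all genes tested 16.2% were lower and 55% had a negative estimate. Lama4, an alpha chain of vessel and mesenchymal basement membranes, fell most. It read 146, 119, 159.6, 149 and 155 in WT and 74.5, 87.4, 84.5, 98.5 and 98.5 in KO. All KO arrays lay below WT 2, the lowest WT array. Lama4 fell 1.54-fold (log2 change -0.63, SE 0.09, limma, adjusted p = 3.3e-04). Of 7 endothelial markers measured beside it, 5 were called higher, with overlapping groups, against 13% higher of all genes tested. Pecam1 and Emcn among them were tested through the KO arrays, as given further on.

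Lama1, an alpha chain of embryonic basement membranes, fell from 35.2 ± 4.63 to 26.6 ± 2.65 (log2 change -0.26, SE 0.07, limma, adjusted p = 0.016), with the highest KO array, KO 6 at 29.9, just below the lowest WT array, WT 1 at 30.6. Lama5, the broadest alpha chain of epithelial basement membranes, lay just outside the threshold at -0.29 (SE 0.10, adjusted p = 0.052). It read 119.7, 129, 136, 157 and 147 in WT and 141, 107, 108, 94.7 and 102 in KO, so that KO 6 alone stood within the WT range. Without KO 6 Lama5 was lower (-0.37, adjusted p = 0.0063), as it was without WT 1 (-0.33, adjusted p = 0.033). Of the 14 alternatives other than leaving out 1 array, it stayed uncalled in 7 and was called lower in the rest. Its weaker probe set gave -0.19 and was not called.

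Lama2, the chain of muscle and nerve basement membranes, had a change of -0.22 (adjusted p = 0.19), again with KO 6 highest, at 114 against 67.7 to 76.2 on the other KO arrays. It passed without KO 6 (-0.33, adjusted p = 0.014). Lama3, the alpha chain of the laminin that hemidesmosomes bind, read 473 ± 113 in WT and 377 ± 65.2 in KO, a change of -0.30 that did not pass (adjusted p = 0.19, 95% interval -0.65 to 0.06). Its partner Lamb3 had a change of 0.01 (95% interval -0.22 to 0.24).

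The beta and gamma chains tested showed no call. Lamb1, a beta chain of most laminins, read 499, 556, 582, 648 and 657 in WT and 780.2, 653, 581, 529.9 and 666 in KO. The groups overlapped widely, with KO 6 the highest array. Its log2 change of 0.12 (adjusted p = 0.44) became -0.01 without WT 1 and KO 6 and with array weights. Lamb2 and Lamc1 had changes of 0.002 and 0.16.

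The linkers and proteoglycans of the basement membrane gave 2 lower genes of 4. Agrn encodes agrin, a heparan sulfate proteoglycan that binds laminins and dystroglycan. It read 785, 729, 849, 856 and 808 in WT and 474, 658, 619, 549 and 669 in KO. The KO arrays were all below the WT arrays, and KO 6 was the lowest. Agrn changed by -0.44 (log2, SE 0.09, limma, adjusted p = 0.0036).

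Nid2, a nidogen that joins laminin to type IV collagen, fell from 122 ± 17.4 to 93.5 ± 17.5 (log2 change -0.34, SE 0.12, limma, adjusted p = 0.046), and the groups overlapped. Nid2 was no longer called in 8 of the 10 fits with 1 array left out, all but those without WT 3 or KO 10, nor without WT 1 and KO 6 together (adjusted p = 0.104). It also failed under quantile normalization (adjusted p = 0.057), median centring (0.0502), no filter (0.054) and a block of the arrays without Xist signal (0.068). The other nidogen, Nid1, had a change of -0.02 (95% interval -0.27 to 0.22). Hspg2, which encodes perlecan, had one of 0.10 (adjusted p = 0.40), while its weaker probe set gave 0.30 and was called.

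The Fraser complex joins epithelia to the underlying tissue in the embryo, and its 2 tested genes changed in opposite directions. Fras1 read 86.6, 87.4, 63.1, 79.4 and 68.1 in WT and 64.04, 64.6, 46.2, 42.1 and 52.1 in KO. KO 6 and KO 7 were just above WT 3, and the other KO arrays were below all WT arrays. Fras1 changed by -0.42 (log2, SE 0.11, limma, adjusted p = 0.015). Frem2 read 26.6, 29.6, 43.3, 44.8 and 38.3 in WT and 59.7, 75.96, 62.4, 78.3 and 93.6 in KO. All KO signals were above all WT signals, for a change of 0.78 (SE 0.13, limma, adjusted p = 6.1e-04).

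Fn1 had the largest fall of all the genes described here. Fibronectin is a matrix protein bound by several integrins of the Itgb1 and Itgav chains. Its signals were 879.9, 1000.0, 1085, 1364 and 1435 in WT and 478, 625, 612, 643 and 517 in KO. The highest KO array, KO 9, was below the lowest WT array, WT 1, and the WT arrays differed among themselves by more than the KO arrays did. This gave a log2 change of -0.97 (SE 0.13, limma, adjusted p = 2.1e-04). A weaker probe set gave -0.91 and was also called.

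Sparc, a collagen-binding matricellular protein that associates with basement membranes, rose. It read 917, 776, 651, 703 and 672 in WT and 984, 913, 999.5, 1068 and 1049.5 in KO. WT 1 was just above KO 7, and the other WT arrays were below all KO arrays. Sparc changed by 0.43 (log2, SE 0.09, limma, adjusted p = 0.0033). The second of its 3 probe sets gave 0.40, also called, and the third, near the 40th percentile, 0.02.

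Dag1, a receptor outside the integrin family, and the tetraspanin Cd151 were both called higher, Cd151 by a narrow margin. Dag1 encodes dystroglycan, which binds the laminin and agrin domains of the basement membrane. It read 638, 612, 637, 674 and 641 in WT and 926, 772, 766, 734 and 769 in KO. The WT arrays were close together, every KO array was above them and KO 6 was the highest. Dag1 changed by 0.30 (log2, SE 0.07, limma, adjusted p = 0.0056), and its 4 probe sets, at 0.30 to 0.44, were all called.

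Cd151, a tetraspanin that associates with the laminin-binding integrins of Itga3 and Itga6, read 839.5, 824, 948, 931 and 856 in WT and 935, 1031, 999, 955 and 1169.9 in KO. The groups overlapped, since KO 6 was below WT 3. The log2 change of 0.20 (SE 0.07, limma, adjusted p = 0.049) was called by a narrow margin. It failed in 8 of the 10 fits with 1 array left out, all but those without WT 3 or KO 6, and with quantile normalization (adjusted p = 0.060). Of its 5 probe sets, tested singly, 3 were called higher, at 0.24 to 0.26. The brightest, the one reported, was not among them (limma over 23581 probe sets, adjusted p = 0.056).

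For 16 of the genes more than 1 probe set passed the filter. The probe sets of 14 genes had changes of 1 sign, and those of Itga9 and Lamb1 had both signs. Calls differed between probe sets of Cd151, Hspg2, Itga3, Itga6, Itgb1 and Sparc. The largest gaps between the changes of a gene's probe sets were 0.75 for Itgb3, 0.41 for Sparc, 0.39 for Itgb5 and 0.38 for Itga6. These tests of every probe set were added after the data were seen.

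**Figure D3:**
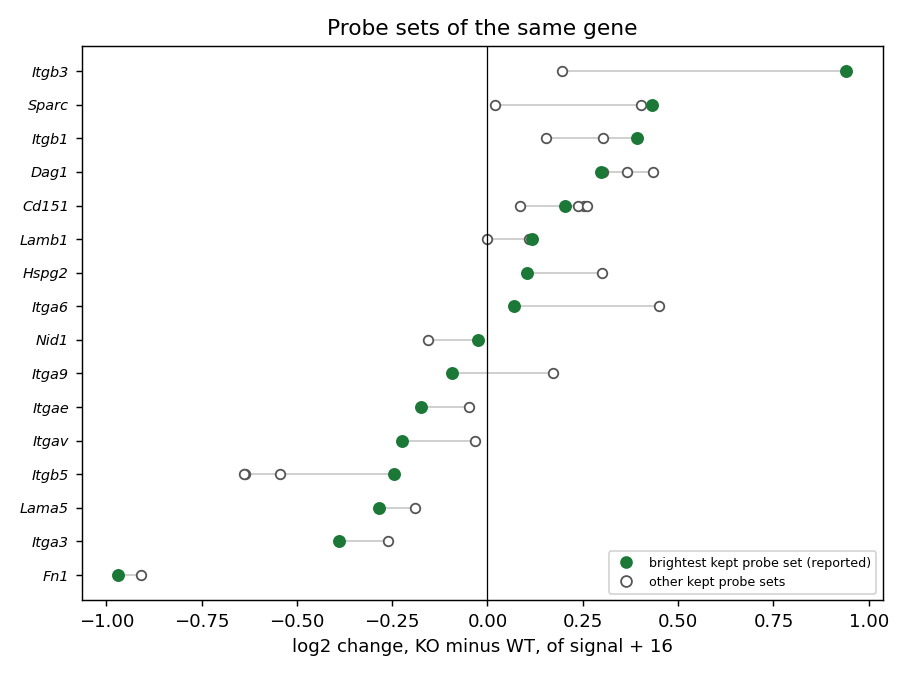
Log2 change (KO minus WT, horizontal axis, of signal + 16) of each kept probe set of the 16 genes with more than 1; green points are the brightest probe set, the one reported, and open points the others. Itgb5 and Itga6 have weaker probe sets with larger changes than the one reported, and Itgb3 and Sparc have dimmer ones with smaller changes.

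Beside these genes, 7 lists of related genes were examined, also chosen with earlier results of these data known. They held 160 genes in all, of which 137 were tested. Of these 18 were lower and 37 higher, with a median log2 change of 0.10. Over all 14087 genes tested 16.2% were lower and 13% higher. These shares are to be set beside the count of each list below, marker lists included. Without WT 1 and KO 6 the counts were 19 and 44, among 2495 and 1945 of all genes. The proteins that link integrins to the cytoskeleton gave 5 lower and 7 higher of 37 (median 0.07). The parvins, which bind integrin-linked kinase, went both ways. Parva fell from 198 ± 14.99 to 107 ± 10.7 (log2 change -0.80) and Parvb rose from 34.4 ± 4.06 to 72.9 ± 7.05 (0.82). Actn4, an actinin that crosslinks actin, rose by 0.43 and Rsu1, a partner of the same kinase complex, by 0.32. These 4 genes were chosen for a small adjusted p, at most 0.0016, and none of their KO signals overlapped the WT signals. Of all genes tested 12% had KO signals entirely below WT signals and 10.1% entirely above.

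Hemidesmosome and dystroglycan partners gave 2 lower and 1 higher of 12 (median -0.004). Col17a1, the transmembrane collagen of hemidesmosomes, fell from 421 ± 50.3 to 148 ± 22.1, a change of -1.42. Krt5 rose by 0.71 (adjusted p = 0.0026) and its basal keratin partner Krt14 fell by 0.42 on the log2 scale (adjusted p = 0.044). Krt14 was not called in 7 of the 10 fits with 1 array left out (WT 3, WT 4, WT 5, KO 6, KO 7, KO 8 or KO 9). Beside Col17a1, the hemidesmosome chains Itga6 and Itgb4 had the changes of 0.07 and -0.28 given above.

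Tetraspanins, membrane organisers that associate with integrins, gave 2 lower and 8 higher of 19, with a median of 0.30. Cd9 rose from 2917 ± 134 to 4931 ± 479 (log2 change 0.75), Tspan1 by 0.87, and Cd53, a leukocyte tetraspanin, from 85.97 ± 9.92 to 266 ± 54.1 (1.45). Cd82 fell by 0.34 on the log2 scale, while its weaker probe set gave 0.08. None of these 4 tetraspanins had an adjusted p above 0.0011.

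Other components and receptors of the basement membrane gave 4 lower and 7 higher of 26 (median 0.06). Smoc2, a matricellular protein related to Sparc, rose from 146 ± 48.8 to 414 ± 61.8 (log2 change 1.46) and Smoc1 by 0.43. Sdc2, a syndecan, fell from 157 ± 17.4 to 89.6 ± 9.14 (-0.71) and Col7a1, the collagen of anchoring fibrils, by 0.49 on the log2 scale. Their adjusted p was at most 0.0093. Col4a1 and Col4a2, the main chains of type IV collagen, were among the higher genes with changes of 0.41 and 0.42, while the called laminin chains were lower. The weaker probe set of Col4a1 gave 0.14.

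Counter-receptors of integrins on cells gave 1 lower and 4 higher of 11 (median 0.24). Icam1, a ligand of the Itgal and Itgam receptors, fell from 4616 ± 395 to 3720.0 ± 418 (log2 change -0.31, adjusted p = 0.014). Vcam1, a ligand of Itga4 receptors, rose from 2409 ± 135 to 3247 ± 251 (0.43), and Cdh1, the ligand of the Itgae receptor, from 2953 ± 284 to 3953 ± 227 (0.42). L1cam rose by 0.76, and the adjusted p of these 3 was at most 0.0010.

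Soluble and matrix ligands gave 4 lower and 6 higher of 15 (median 0.21). The fibrinogen chains all fell. Fga went from 64.7 ± 14.4 to 25.4 ± 6.76 (log2 change -0.96), Fgb from 268 ± 26.5 to 116 ± 42.8 (-1.15) and Fgg from 626 ± 65.6 to 352 ± 78.3 (-0.82). Ltbp1, which holds latent TGF-beta in the matrix, rose from 55.1 ± 9.95 to 132 ± 5.86 (log2 change 1.06), Vwf from 186 ± 19.6 to 318 ± 28.1 (0.73) and Ccn1 by 0.98. The adjusted p of these 6 ligands was at most 5.8e-04. Matrix proteases and inhibitors gave 4 higher genes of 17 and 13 not past the threshold (median 0.17). The higher ones were Plau, the urokinase plasminogen activator, from 99.3 ± 21.97 to 219 ± 38.5 (1.04), its receptor Plaur (0.27), Timp2 (0.51) and Mmp2 (0.31). Mmp2 was not called in 6 of the 10 fits with 1 array left out (WT 2, WT 3, WT 4, WT 5, KO 7 or KO 8).

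**Figure D4:**
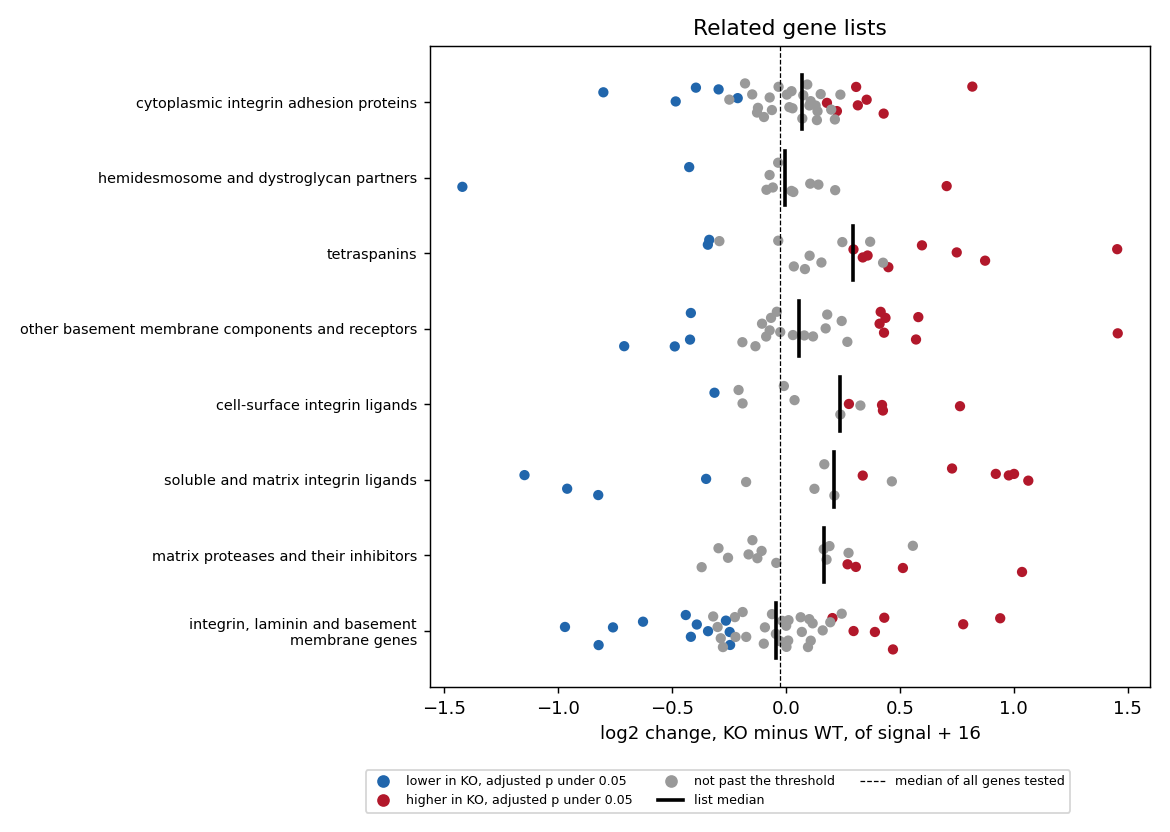
Log2 change (KO minus WT, horizontal axis, of signal + 16) of each tested gene in 7 related lists and among the 45 integrin, laminin and basement membrane genes; coloured points were called, thick bars are medians and the dashed line is the median of all genes, -0.03. Tetraspanins have the highest list median, 0.30, and the integrin, laminin and basement membrane genes the lowest, -0.04.

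Markers of other cells that a sort could hold were measured beside the genes they bear on, and their part in the results was not tested. Of 7 endothelial markers Pecam1, Emcn, Kdr, Cdh5 and Cldn5 were higher, with log2 changes of 0.60 to 0.90, and Tek and Plvap were not past the threshold. The groups overlapped for each of the 5 called, with WT 1 the highest WT array. Pecam1 read 38.1 on WT 1 and 15.8 to 20.9 on the other WT arrays, and Emcn 28.5 and 12.7 to 19.5. Their KO signals, 25.2 and above, all exceeded the 40th percentiles of 21.6 to 22.1, so both genes were tested through KO. The summed signal of the list was 509 to 945 in WT and 861 to 1092 in KO. Without WT 1 and KO 6 all 7 were higher. Cldn5 was not called without WT 2, WT 3, WT 4, WT 5, KO 6, KO 7 or KO 8, and was called without both WT 1 and KO 6.

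Platelet and megakaryocyte markers, which bear on Itga2b and Itgb3, gave 1 lower and 2 higher of 5. Ppbp rose by 1.47 and Gp1bb by 0.58, Pf4 fell by 0.33 on the log2 scale, and Gp9 and Treml1 had changes of -0.16 and -0.05. Their summed signal was 446 to 517 in WT and 547 to 947 in KO, with KO 6 the highest. Without WT 1 and KO 6 the change of Ppbp was 1.17, still called. Itga2b, the chain that defines platelets among integrins, had a change of 0.20 that was not called (adjusted p = 0.23).

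Markers of leukocytes, which bear on Itgal, Itgam and Itgb2, gave 2 lower (Laptm5 and Coro1a) and 1 higher (Cd53) of 5, with a summed signal of 7640 to 9047 in WT and 6483 to 7248 in KO. Laptm5 and Lcp1, with WT means of 5160 and 2067, make up most of this sum, and Cd53, at 85.97, little of it. The 4 kept probe sets of Laptm5 gave log2 changes of both signs, from -0.64 to 0.10. Markers of macrophages and monocytes gave 4 lower and 2 higher of 8, with Adgre1 and Csf1r falling by 0.67 and 0.52 on the log2 scale and Fcgr3 rising by 1.08. Cd14, also lower, was not called without WT 3, WT 4, WT 5, KO 7, KO 8, KO 9 or KO 10. Their sum was 6195 to 6846 in WT and 4591 to 5746 in KO, most of it from Lyz2, with a WT mean of 4291. For dendritic cells 2 of 5 tested markers, Flt3 and Siglech, were lower, with sums of 552 to 640.0 in WT and 451 to 536 in KO, and Xcr1 was below the filter. The B cell markers Cd79b and Ms4a1 were lower and higher, with sums of 299.8 to 357 and 245 to 264, and Cd79a and Pax5 were below the filter. The 8 tested thymocyte markers had adjusted p of 0.62 and above, with sums of 683 to 944 in WT and 477 to 1057 in KO, KO 6 being the lowest. Without WT 1 and KO 6 together Rag1 was called higher (0.46, adjusted p = 0.018). Themis was below the filter.

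Fibroblast markers, which bear on Fn1, Sparc and the laminin chains of stroma, gave 2 higher of 7. These were Lum, by 0.86, and Dcn, by 0.30, while Col1a1, Col1a2, Col3a1, Pdgfra and Pdgfrb were not past the threshold. Dcn was not called without WT 2, WT 3 or WT 4. The summed signal was 2507 to 3164 in WT and 2682 to 3490 in KO. Markers of smooth muscle and pericytes gave 2 lower of 5, Acta2 by 0.44 and Cspg4 by 0.25 on the log2 scale, with sums of 6025 to 7621 and 5369 to 7506. A list of 12 markers of thymic epithelium held some, Ly75 among them, that are not particular to the medulla. Of these 12, 3 were lower (Aire, Krt14 and Ly75), 2 higher (Krt5 and Cdh1) and 7 not past the threshold. Their sums were 74583 to 87081 in WT and 81813 to 85308 in KO. Aire was not called without WT 3, WT 4 or WT 5, and Ly75 not without WT 4 or WT 5.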

How the data were processed

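RNA of sorted mTECs was measured on 5 WT and 5 Fezf2 KO arrays. The authors deposited linear intensities, 1 per probe set and array. Per the submitters' processing notes MAS5 was used. Its version, scaling target and background step were not given in the sources used here. Array medians lay between 36.5 and 38.03, so no further normalization was applied. Of 45101 probe sets 34958 had exactly 1 gene symbol in the platform annotation, 932 several and 9211 none; 34754 of the 34958 were matched by Entrez identifier to a RefSeq table of assembly GRCm38.p6 for names. No build is named for the arrays, so no coordinates are given. The filter (40th percentile on at least 5 arrays) left 23581 probe sets and 14087 genes. Intensities were analysed as log2(signal + 16) with limma 3.58.1 in R 4.3.3 (lmFit, eBayes with trend and robust), Benjamini-Hochberg adjusted over all genes. The procedure was tested on simulated data. The number of arrays limits the precision.

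Values on every array are given for called genes with an absolute log2 change of at least 0.5 and for the brightest gene of each role. Array values of Dag1, Itgam, Itgb1, Lama5 and the other probe set of Itga6 were added after they were seen. From each related list up to 4 called genes with the smallest adjusted p are named; others were added after their values were seen. The genes and lists were chosen with earlier results of these data known. No sequences were used here.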

Additional observations from a re-analysis of the deposited data

Results flagged for a closer look

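The 13 genes named by rule were examined for single arrays far from the rest of their group, 26 groups in all, by Dixon's ratio at its 95% critical value of 0.71. Itgal on WT 4 was 319.7, against 251 to 268 on the other WT arrays, a ratio of 0.745. Without WT 4 the call of Itgal was kept.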

How the results depend on the processing

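The 11 lower and 7 higher genes were recounted under 24 alternatives. With array weights 18 were lower, and 7 were higher, and at a threshold of 0.01 the counts were 5 lower and 4 higher, with 1313 lower and 1160 higher over all genes. Under the other alternatives, with offsets of 1 or 64, quantile normalization, median centring, no filter or a filter at the 60th percentile, other probe set rules, no trend and blocks or omission of arrays, each count was within 1.5 times of that reported. Leaving out each array in turn gave 8 to 12 lower and 6 to 7 higher genes, among 1824 to 2379 and 1507 to 1866 of all genes. The change of Lamb1, not called, was -0.0099 with array weights and -0.0102 without WT 1 and KO 6. Of the 11 lower genes 5 and of the 7 higher genes 4 kept their call in every alternative in which they were tested. No paired analysis was possible because WT and KO arrays share no replicate numbers. Arrays without Xist signal, WT 2, KO 6 and KO 8, were used as a block and gave 11 lower and 7 higher genes, among 2129 and 1745 of all genes. The second brightest probe set of a gene, chosen after seeing the data, turned Itga6 into a called gene (0.45), as did the mean of its probe sets (0.26). The lowest signals of Frem2, 26.6, Itgam, 24.6, and Lama1, 22.7, lay near the 40th percentiles of the arrays.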
